A study of Arabidopsis thaliana with 2 samples.

Results

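The gene set described here holds the nuclear genes of Arabidopsis thaliana for the photosystems, their light-harvesting antenna and the small subunit of Rubisco. Its 42 members were chosen by the identifiers of these gene families, with no threshold on their values, and all 42 were found among the 33557 genes of the table. RNA was measured in semi-in-vivo pollen tubes, whose grains germinate on an excised stigma and whose tips emerge from the style onto solidified medium. Mutant tubes have the genotype label drop1- drop2- (drop, mutant in both genes) and control tubes the label wild type (WT). Each genotype has 1 Smart-seq2 library of polyadenylated RNA, made from the pooled tubes of 2 stigmas, each pollinated with 500 to 600 grains after 36 h of emasculation, with tubes cut at 300 to 400 µm outside the style. The treatment note of each library, WT included, mentions double mutant grains, so the genotypes rest on the genotype labels alone, and DROP1 and DROP2 levels were not checked here. As there was 1 library per genotype, values carry no replicate error, no test was run, and genotype cannot be told apart from library.

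Photosystem II splits water, and photosystem I passes the electrons on to ferredoxin. Both collect light through chlorophyll-binding antenna proteins, called LHCB around photosystem II and LHCA around photosystem I. Rubisco fixes carbon dioxide with a large subunit coded in the plastid and a small subunit, RBCS, coded in the nucleus. In leaves these nuclear genes are among the most strongly expressed and are induced together by light, and their proteins are imported into chloroplasts. Pollen plastids are not green.

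The 4 RBCS genes are shown first because they hold RBCS3B, the member of highest WT level, and because fragments of such close copies can be assigned to the wrong one. RBCS1B, RBCS2B and RBCS3B lie side by side on the minus strand of chromosome 5, and RBCS1A lies alone on chromosome 1. Over the first 540 coding bases, RBCS3B differed from RBCS2B at 17 bases and from RBCS1B at 18, while RBCS1A differed from each of the other genes at 52. Coding bases 301 to 420, counted from the start codon and read from the RefSeq TAIR10.1 genome, are printed with the 8 positions that vary among the genes in capitals.
RBCS3B: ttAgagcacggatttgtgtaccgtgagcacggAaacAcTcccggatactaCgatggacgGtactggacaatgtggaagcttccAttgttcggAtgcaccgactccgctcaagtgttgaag
RBCS1A: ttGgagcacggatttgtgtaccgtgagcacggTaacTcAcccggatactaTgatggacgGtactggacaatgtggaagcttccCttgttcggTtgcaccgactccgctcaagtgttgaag
RBCS2B: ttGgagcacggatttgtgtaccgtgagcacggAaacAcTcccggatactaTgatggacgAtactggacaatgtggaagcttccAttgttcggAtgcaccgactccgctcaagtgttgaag
RBCS1B: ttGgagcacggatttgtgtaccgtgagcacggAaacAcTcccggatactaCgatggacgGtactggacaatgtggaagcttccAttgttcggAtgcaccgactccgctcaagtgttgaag

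Sequence before the members' start codons was searched for motifs known from light-regulated genes of plants, on both strands. The G-box is CACGTG, and the I-box is GATAAG, or CTTATC on the other strand; a G-box and an I-box can share at most 1 base. Within 500 bases before the start codon, a G-box was found in 22 of the 42 members (52.4%) and in 9.3% of 27443 genes. An I-box was found in 29 members (69%) and in 23.5% of those genes, and both motifs in 16 members (38.1%) and 2.28% of those genes. The general motifs differed less, with the CCAAT box in 88.1% of members and 67.9% of genes and the TATA box, TATAAA, in 66.7% and 64.3%. The window holds promoter and transcribed leader alike, and these are matches of letters, not shown to be sites in use.

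In 6 members a G-box and an I-box lay together within 30 bases, an arrangement present in 92 of the 27443 genes (0.335%). They are printed on the strand of the gene, with both motifs in capitals and TAIR10.1 positions.
RBCS3B, chr5:15378517-15378546, minus: GATAAGataatggagttttctgcCACGTGg
RBCS2B, chr5:15382188-15382217, minus: GATAAGattatggagttttctgcCACGTGa
RBCS1A, chr1:25049503-25049532, minus: GATAAGattcatggaattatcttcCACGTG
PSAH-1, chr3:5469564-5469593, minus: CTTATCctactagattcCACGTGgcatttt
PSAH2, chr1:19454714-19454743, plus: CTTATCtttttataatcCACGTGgcatttc
LHCA3, chr1:22699943-22699972, plus: CTTATCcaacttatattgcCACGTGgacag
In the printed stretches the motif starts are 23 or 24 bases apart in the RBCS genes, 17 in both PSAH genes and 19 in LHCA3. In RBCS2B and RBCS3B another I-box lies within 30 bases, on the other side of the G-box. It starts closer to the G-box than the printed I-box does and falls outside the printed stretch. The limit of 30 bases and the kinship of the RBCS and PSAH copies bound how far these distances can differ. For the same kinship the 6 members are not independent cases. By the annotation, the sites of RBCS1A, RBCS3B, LHCA3 and PSAH-1 lie after the gene start, and those of RBCS2B and PSAH2 before it. Of these 6 genes, 4 were called lower in drop by the rule given below, and the other 2 were RBCS2B, which is near 0 in both libraries, and LHCA3. Both motifs were found before 10 of the 22 members called lower and before 6 of the 20 others. In the 250 bases before the annotated gene start, a G-box was found in 3 of the 22 and in 6 of the 20, so the motifs show no common order between called and other members.

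Levels are given in FPKM, a unit that divides the fragments of a gene by its transcript length and by the mapped fragments of the library. A gene was called lower or higher when drop differed from WT by at least 2-fold on the scale log2((drop FPKM + 1)/(WT FPKM + 1)) and at least 1 library had 1 FPKM or more, which is here the meaning of measured. The summed level of the 42 members was 92.9 FPKM in drop and 386.9 FPKM in WT, so drop held 24.0% of the WT sum. As a share of all summed FPKM this was 0.00253% in drop and 0.0298% in WT. In bulk RNA, fewer cells of a type and less RNA per cell cannot be told apart.

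Of the 42 members, 32 were measured, 22 were called lower in drop and 0 were called higher. Among the 9880 measured genes of the whole table, 30.4% were called lower and 26.4% higher. All 32 measured members lay below 0 on the log2 scale, with a median of -1.49, quartiles of -1.79 and -0.97 and a range of -4.33 to -0.23, against a median of -0.07 for all measured genes. All 32 reached 1 FPKM in WT and 26 did so in drop, so 6 members (LHCB6, LHCA4, PSBO2, PSBP-1, NPQ4 and PSAN) were measured through WT alone, and all 6 were called lower. Of the 26 with at least 1 FPKM in drop, 16 were called lower. The 10 unmeasured members comprised LHB1B1 and LHCB2.3, listed at 0 in both libraries, and 8 with less than 1 FPKM in each library.

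**Figure D1:**
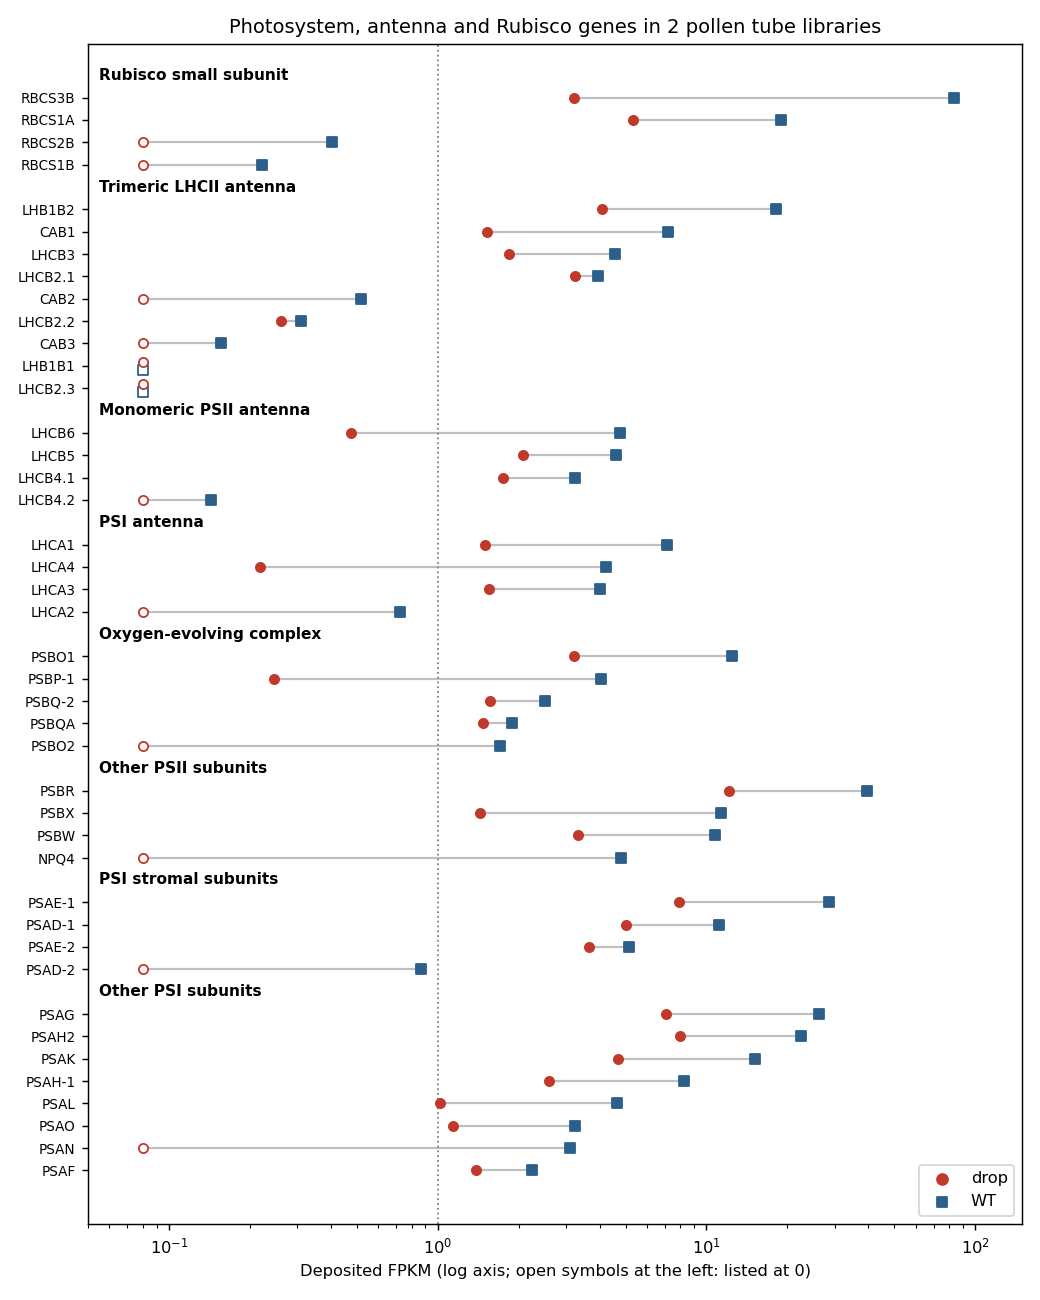
Deposited FPKM (log axis) of the 42 members in drop (circles) and WT (squares), by role, with open symbols for genes listed at 0 and a dotted line at 1 FPKM. Among members above 0 in both libraries RBCS3B has the widest gap, 3.22 FPKM in drop against 83.7 FPKM in WT, and no measured member lies higher in drop.

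Depth limits these values. By the approximate FPKM of 1 fragment, the members together had about 265 fragments in drop and 2207 in WT. No member exceeded 23.1 fragments in drop, and 21 of the 32 measured members had fewer than 10 there. A value of 0 is a listed value that can be a failed estimate. The 95% intervals below are exact Poisson intervals on rounded fragment estimates, cover counting error only and assume that fragments are independent, which PCR copies are not.

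The Rubisco small subunit showed the widest difference of the 8 roles. RBCS3B (AT5G38410; chr5:15376988-15378642, minus, TAIR10.1) had 3.22 FPKM in drop (95% interval 1.66 to 5.62) and 83.7 FPKM in WT (77.2 to 90.5), a 26-fold difference in FPKM. It ranked 4609 among the genes in drop and 712 in WT. RBCS1A (AT1G67090), the most divergent copy, had 5.34 FPKM in drop (3.34 to 8.08) and 18.9 FPKM in WT (16 to 22.3). RBCS3B thus stood below RBCS1A in drop, at 0.603 times its level, and above it in WT, at 4.42 times. RBCS2B was listed at 0 in drop and had 0.405 FPKM in WT, and RBCS1B was listed at 0 in drop and had 0.222 FPKM in WT. The near copies of RBCS3B in the tandem were below 1 FPKM in both libraries, although 14.6% of the 50-base windows of RBCS3B occur in another gene of the table and the split between copies is uncertain. Rubisco genes made up 9.21% of the members' summed FPKM in drop and 26.7% in WT. Without RBCS3B the summed level of the other members in drop was 29.6% of that in WT.

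The trimeric antenna of photosystem II, LHCII, is built from LHCB1, LHCB2 and LHCB3 proteins. Of its 9 genes 4 were measured and 2 were called lower. LHB1B2, an LHCB1 gene, had 4.09 FPKM in drop and 18.2 FPKM in WT, and CAB1, another LHCB1 gene, had 1.52 FPKM in drop and 7.19 FPKM in WT. The ratio of LHB1B2 to CAB1 was 2.69 in drop and 2.53 in WT. In drop it rests on about 12.8 fragments of LHB1B2 and 5.96 of CAB1. The 95% interval of CAB1 there is 0.558 to 3.31 FPKM. Of the windows of LHB1B2 22.3% occur in other genes, and of those of CAB1 22.0%. Whether the genes kept their proportion cannot be read from counts this low. LHCB2.1 differed little on the deposited scale, with 3.24 FPKM in drop (1.81 to 5.35) and 3.96 FPKM in WT (2.74 to 5.54), intervals that overlap. This depends on the scaling. LHCB2.1 stood at -1.21 with the summed FPKM of the libraries made equal and at 0.09 under quantile normalization. It shares 21.9% of its windows with LHCB2.2. LHCB3 had 1.85 FPKM in drop and 4.55 FPKM in WT, just short of 2-fold on the log2 scale at -0.96, but 11.5% of its windows are shared with its neighbour AT5G54280, which had 1.08 FPKM in drop and 6.87 FPKM in WT. The other genes were near or at 0, with CAB2 at 0 in drop and 0.519 FPKM in WT, CAB3 at 0 in drop and 0.155 FPKM in WT, and LHCB2.2 at 0.262 FPKM in drop and 0.310 FPKM in WT. CAB1, CAB2 and CAB3 are clustered close copies, so their single values are uncertain.

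The monomeric antenna proteins link LHCII to the photosystem II core. LHCB6 was called lower, with 0.476 FPKM in drop (0.0577 to 1.72) and 4.76 FPKM in WT (3.31 to 6.62), though it shares 4.68% of its windows with the neighbour AT1G15810, which had 0.815 FPKM in drop and 18.6 FPKM in WT. LHCB5 had 2.08 FPKM in drop and 4.60 FPKM in WT, and LHCB4.1 had 1.74 FPKM in drop and 3.25 FPKM in WT. Neither was called, although LHCB5 differed 2.21-fold in FPKM, because its value on the log2 scale was -0.86. LHCB4.2 was listed at 0 in drop and had 0.143 FPKM in WT. In this role 1 of 3 measured genes was called lower on the deposited scale, next to 30.4% of the whole table. This count depends on the scaling. With the summed FPKM of the libraries made equal, all 3 were called lower, next to 48.6% of all measured genes. LHCB6 then stood at -2.30, LHCB5 at -1.69 and LHCB4.1 at -1.39. Under quantile normalization LHCB6 alone was called.

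The photosystem I antenna is formed by LHCA1 to LHCA4. LHCA4 (AT3G47470; chr3:17493343-17495033, minus) had 0.219 FPKM in drop (0.00553 to 1.22), about 1 fragment, and 4.24 FPKM in WT (2.92 to 5.96). LHCA1 had 1.5 FPKM in drop and 7.14 FPKM in WT. These 2 genes were called lower, while LHCA3, with 1.55 FPKM in drop and 4.02 FPKM in WT, ended just outside at -0.98. LHCA2 was listed at 0 in drop and had 0.725 FPKM in WT. Among the genes of this antenna above 0 in both libraries, LHCA4 has the lowest ratio, and the 250 bases before its annotated start, chr3:17495034-17495283 on the minus strand of TAIR10.1, are shown with the G-box in capitals.
LHCA4: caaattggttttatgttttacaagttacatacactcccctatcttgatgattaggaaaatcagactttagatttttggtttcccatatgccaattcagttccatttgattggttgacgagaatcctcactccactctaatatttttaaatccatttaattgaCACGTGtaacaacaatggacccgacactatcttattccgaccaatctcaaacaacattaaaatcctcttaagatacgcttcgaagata
The G-box begins 88 bases before the annotated start. In windows of this kind 9 of the 42 members and 6.49% of 27443 genes held a G-box.

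The oxygen-evolving complex stabilises the manganese cluster that splits water. PSBO1 had 3.23 FPKM in drop and 12.5 FPKM in WT, and its copy PSBO2 was listed at 0 in drop and had 1.70 FPKM in WT. PSBP-1 had 0.245 FPKM in drop (0.00620 to 1.36) and 4.05 FPKM in WT (2.79 to 5.69). These 3 genes were called lower. The PSBQ genes were not, with PSBQA at 1.47 FPKM in drop and 1.89 FPKM in WT and PSBQ-2 at 1.57 FPKM in drop and 2.50 FPKM in WT. All 5 genes of the complex were measured, and the called genes on the deposited scale were the PSBO and PSBP genes. This split depends on the scaling, since PSBQ-2 was called lower in 3 of the 4 other scalings, at -1.02 to -1.17.

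All 4 of the other photosystem II genes were called lower. PSBR (AT1G79040), a subunit needed for stable binding of the oxygen-evolving proteins, had 12.1 FPKM in drop (7.67 to 18.1) and 39.7 FPKM in WT (33.3 to 46.8). PSBR was the member of highest level in drop and the one member to reach 10 FPKM there. The gene of PSBS, listed as NPQ4 and needed for the dissipation of excess light as heat, was listed at 0 in drop and had 4.79 FPKM in WT (3.48 to 6.43), about 44.1 fragments. PSBX, a small membrane subunit, had 1.43 FPKM in drop (0.295 to 4.19) and 11.3 FPKM in WT (7.91 to 15.6). PSBW, which stabilises photosystem II supercomplexes, had 3.34 FPKM in drop and 10.8 FPKM in WT.

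On the stromal side of photosystem I, PSAD and PSAE form the docking site of ferredoxin, together with the plastid-coded PSAC. PSAE-1 had 7.90 FPKM in drop and 28.5 FPKM in WT. PSAD-1 had 5.02 FPKM in drop (2.92 to 8.04) and 11.1 FPKM in WT (8.59 to 14.2), the member called lower by the smallest margin, at -1.01, and not called under quantile normalization, at -0.84. Their second copies stood lower in level in both libraries. PSAE-2 had 3.65 FPKM in drop and 5.14 FPKM in WT and was not called, so that PSAE-1 was 2.16 times PSAE-2 in drop and 5.55 times in WT. PSAD-2 was listed at 0 in drop and had 0.864 FPKM in WT.

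The other photosystem I subunits form the part of the complex that binds plastocyanin (PSAF, PSAN), LHCA proteins (PSAG, PSAK) and LHCII (PSAH, PSAL, PSAO). All 8 genes were measured and 6 were called lower. PSAG had 7.06 FPKM in drop and 26.2 FPKM in WT, and PSAK had 4.68 FPKM in drop and 15.1 FPKM in WT. PSAL had 1.02 FPKM in drop and 4.63 FPKM in WT, and PSAN was listed at 0 in drop and had 3.10 FPKM in WT. PSAF and PSAO were not called, with PSAF at 1.39 FPKM in drop and 2.23 FPKM in WT and PSAO at 1.14 FPKM in drop and 3.23 FPKM in WT, just outside at -0.98. PSAH2 had 7.99 FPKM in drop and 22.4 FPKM in WT, and PSAH-1 had 2.59 FPKM in drop and 8.22 FPKM in WT. Each PSAH gene overlaps a neighbouring gene of higher level, whose values are not reported here, and Smart-seq2 does not keep the strand. How far fragments of the neighbours enter the PSAH values was not tested.

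The 12 members with at least 10 FPKM in WT were all called lower. RBCS3B kept 3.85% of its WT level in drop and PSBX 12.7%, while the other 10 kept between 22.5% and 45.1%. The median over the 12 was 27.9%, with quartiles of 25.0% and 31.0%. Among the 2192 genes of the table with 10 to 100 FPKM in WT, 38.4% were called lower, the quartiles of the level kept were 19.8%, 87.4% and 240%, and 10.5% fell between 22.5% and 45.1%. The range of 22.5% to 45.1% was read from these members, with RBCS3B and PSBX set aside, so the 10.5% is no test of their closeness. As a description, the quartiles of the 12 members lay closer together than those of genes in the same range of WT level. Of the 16 members with 1 to 5 FPKM in WT, 7 were called lower, next to 33.8% of the genes in that range, and of the 4 with 5 to 10 FPKM, 3 were called lower, next to 35.5%. By this rule the share called lower was nearest to that of the table among the members of lowest level. This order depends on the 1 added to each FPKM. With 0.1 added instead, LHCB3 stood at -1.26, LHCA3 at -1.32, PSAO at -1.43 and LHCB5 at -1.11, all past 2-fold. The other uncalled members with 1 to 5 FPKM in WT stayed short of 2-fold. The share of the table in that range was not computed with 0.1 added.

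**Figure D2:**
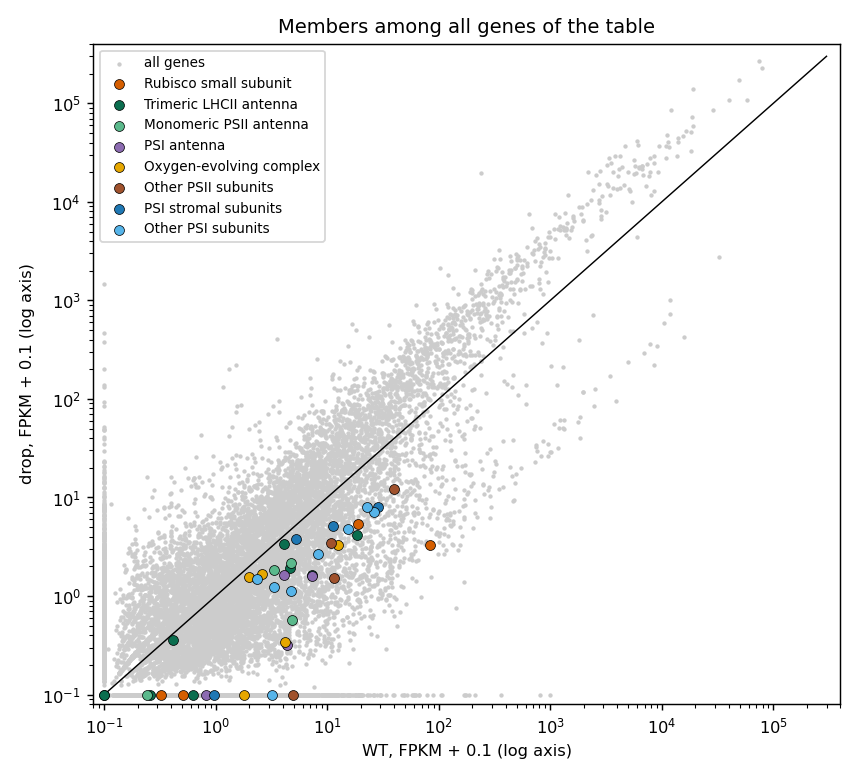
Levels in drop (vertical, FPKM + 0.1) and WT (horizontal, FPKM + 0.1) on log axes for all genes (grey) and the 42 members coloured by role, with a line where both are equal. Of the 12 members with at least 10 FPKM in WT, 10 lie at 22.5% to 45.1% of WT, limits read from these members. The others are PSBX at 12.7% and RBCS3B at 3.85%.

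The order of the members was similar in both libraries, with a Spearman rho of 0.73 over the 32 measured members, given as a description. Shorter transcripts had higher levels, with a rho of -0.38 between length and FPKM in drop and -0.36 in WT, while the ratio of drop to WT was unrelated to length (rho 0.03). The call rate was alike on both sides of 1000 bases, with 7 of 10 shorter and 15 of 22 longer transcripts called lower.

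Other nuclear genes of photosynthesis had lower median levels than the members. Over 74 genes in 6 lists, 26 were measured, 9 were called lower and 2 higher, with a median log2 value of -0.75 over the measured genes. The share called lower, 34.6%, was close to the 30.4% of the whole table. The median level over all 74 genes was 0.125 FPKM in drop and 0.449 FPKM in WT, while that over the 42 members was 1.49 FPKM in drop and 4.40 FPKM in WT. The 74 genes include 10 regulators, 7 of them listed at 0 in WT, which lower that median. They also include 12 photosystem and antenna genes outside the member set, 6 of them listed at 0 in WT.

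Among 12 further photosystem and antenna genes, 4 were measured and 3 were called lower. PSBTN, a small photosystem II subunit, was listed at 0 in drop and had 10.8 FPKM in WT. PSBY, another small subunit, was listed at 0 in drop and had 1.87 FPKM in WT, whereas the light-stress protein gene ELIP1 had 2.22 FPKM in drop and 2.15 FPKM in WT. Of 12 genes for electron carriers and the ATP synthase, 7 were measured and 0 were called in either direction on the deposited scale. With equal sums 3 were called lower, next to 48.6% of all measured genes. Under quantile normalization 0 were called lower and 2 higher, next to 27.6% of all measured genes called higher. The 1 added to each FPKM narrows differences at such low levels, so some FPKM values below differ by more than 2-fold without a call. The plastocyanin gene PETE2 had 2.72 FPKM in drop and 6.04 FPKM in WT, and PETM, of the cytochrome b6f complex, had 1.81 FPKM in drop and 2.88 FPKM in WT. ATPD, the ATP synthase delta subunit, had 0.346 FPKM in drop and 1.61 FPKM in WT, and PGR5, of cyclic electron flow, had 1.5 FPKM in drop and 0.283 FPKM in WT.

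Of 15 Calvin cycle genes, 4 were measured and 3 were called lower. CP12-1, a redox regulator of the cycle, had 7.20 FPKM in drop and 23.4 FPKM in WT, and RCA, the Rubisco activase, had 0.123 FPKM in drop and 1.67 FPKM in WT. RPE, an epimerase also of the pentose phosphate pathway, had 9.08 FPKM in drop and 12.7 FPKM in WT and was not called. Of 9 photorespiration genes, 5 were measured, 0 were called lower and 2 higher, next to 26.4% of the table called higher, and the list's median log2 value was 0.21. With equal sums none of the 5 was called higher and the median was -0.55, so the sign depends on the scaling. SHM1, a mitochondrial serine hydroxymethyltransferase, had 53.0 FPKM in drop and 10.6 FPKM in WT, and PGLP1, a phosphoglycolate phosphatase, had 1.05 FPKM in drop and was listed at 0 in WT. The catalase gene CAT2 had 2.70 FPKM in drop and 2.21 FPKM in WT.

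Of 16 chlorophyll synthesis genes, 6 were measured and 3 were called lower. CHLG, chlorophyll synthase, had 1.04 FPKM in drop and 33.0 FPKM in WT, so drop kept 3.15% of its WT level. GUN4, which aids magnesium chelatase, was listed at 0 in drop and had 2.64 FPKM in WT, and GSA1 had 1.26 FPKM in drop and 2.25 FPKM in WT. CHLG was thus the one gene of this list at a level comparable with the higher members in WT. None of 10 regulators of photosynthesis genes was measured. GLK1, GNC, CGA1, PIF1, PIF3 and SIG2, transcriptional regulators of such genes, were listed at 0 in both libraries.

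Of 14 genes for plastid protein import and folding, 5 were measured, 1 was called lower and 0 higher. CPN60A, a chaperonin, was listed at 0 in drop and had 1.22 FPKM in WT, and CLPC1 had 1.17 FPKM in drop and 2.18 FPKM in WT. The stromal chaperone gene cpHsc70-2 had 2.53 FPKM in drop and 1.10 FPKM in WT.

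**Figure D3:**
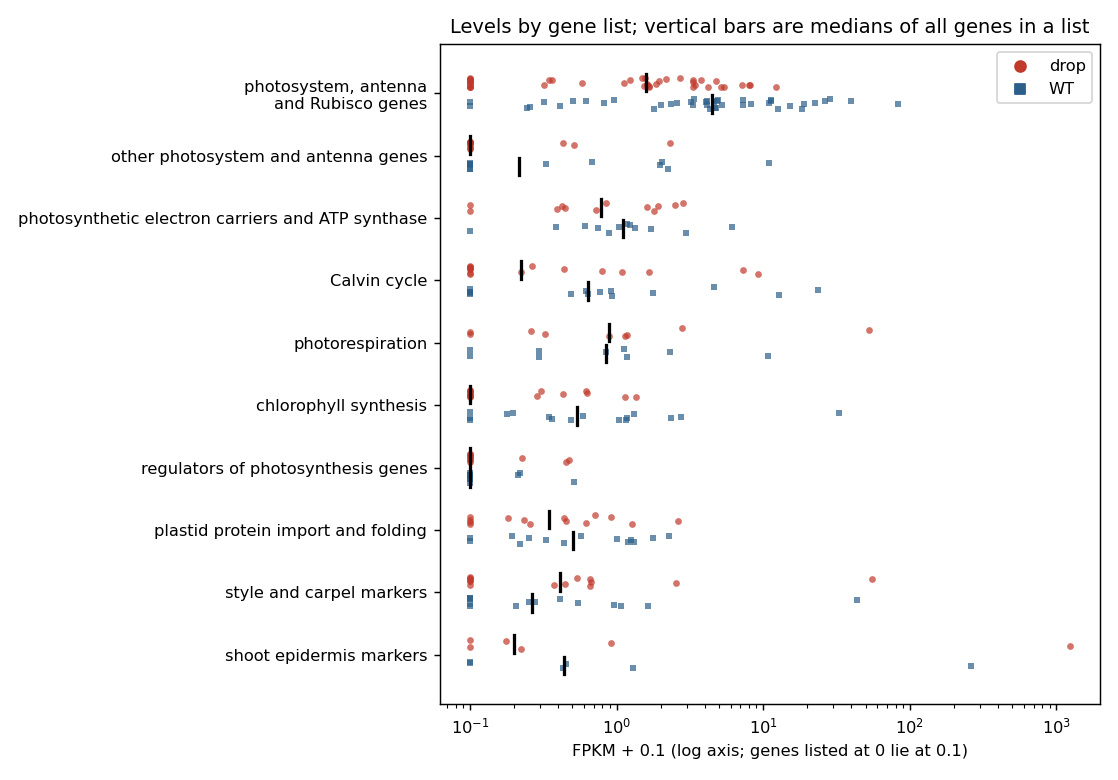
FPKM + 0.1 (log axis) of the members and of 9 other lists, without the pollen and sperm markers, in drop (circles) and WT (squares), with a vertical bar at the median of each list. The median of the members lies above those of the other lists in each library, and SHM1, HAF and LTP1 stand apart at the right.

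Markers of the cell types in the tubes differed between the libraries too. All 6 vegetative pollen markers were called higher on the deposited scale, with sums of 49289 FPKM in drop and 17124 FPKM in WT, but as a share of all summed FPKM they came to 1.34% in drop and 1.32% in WT. With equal sums 2 of the 6, ANX1 and CPK34, were called higher, and 4 were called higher under each of the other 3 scalings. AGP11, an arabinogalactan protein, had 28010 FPKM in drop and 11006 FPKM in WT, and VGD1, a pectin methylesterase, had 19160 FPKM in drop and 5688 FPKM in WT, so transcripts of the labelled tissue were abundant in both libraries. All 6 sperm markers were called lower in all 5 scalings, with sums of 613.2 FPKM in drop and 16306 FPKM in WT. DAZ3 kept 4.21% of its WT level in drop, and the range over the 6 was 2.59% (PCR11) to 14.7% (GEX1). RBCS3B at 3.85%, LHCA4 at 5.15%, PSBP-1 at 6.04%, LHCB6 at 10.0% and PSBX at 12.7% lie in that range, as does CHLG, while the other measured members above 0 in drop kept 21.0% or more. In drop LHCA4 had about 0.90 fragments, PSBP-1 1.05, LHCB6 1.83 and PSBX 2.52. Their 95% intervals there reach 1.22, 1.36, 1.72 and 4.19 FPKM. Counts this low cannot place these genes inside that range or set them apart from the other members. The part of the sperm markers in the members' result was not tested.

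Style, carpel and epidermis markers were mostly near 0, apart from HAF and LTP1. Of 14 style and carpel markers, 3 were measured and 0 were called in either direction, with sums of 60.3 FPKM in drop and 48.4 FPKM in WT. HAF, a transcription factor of the transmitting tract, supplied most of this, with 55.1 FPKM in drop and 43.8 FPKM in WT. AG had 2.43 FPKM in drop and 0.862 FPKM in WT, and SHP2 had 0.273 FPKM in drop and 1.53 FPKM in WT, while STY1, CRC, HEC1 and HEC3 were listed at 0 in both libraries. Of 6 shoot epidermis markers, 2 were measured, 0 were called lower and 1 higher, with sums of 1248 FPKM in drop and 261.5 FPKM in WT. LTP1, a lipid transfer protein, had 1247 FPKM in drop and 259.7 FPKM in WT, CER1 had 0.122 FPKM in drop and 1.19 FPKM in WT, and PDF1 was listed at 0 in both libraries. With equal sums 2 of the 3 style and carpel markers and 1 of the 2 epidermis markers were called lower and 0 higher. In that scaling 48.6% of all measured genes were called lower. Under quantile normalization 0 markers of these lists were called lower, while AG and LTP1 were called higher, next to 27.6% of all measured genes. LTP1 was called higher in every scaling but equal sums. The part of these tissues in the members' result was not tested.

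The scaling between the libraries moved the counts but not the absence of members called higher. Summed over all genes, the deposited values came to 3.67e+06 FPKM in drop and 1.30e+06 FPKM in WT. With sums made equal, 31 of the 32 measured members were called lower, next to 48.6% of all measured genes lower and 4.39% higher, and the median of all measured genes was -0.96. After scaling to a median ratio of 1, taken over the genes with 10 FPKM or more in each library, 29 were called lower, next to 43.4% of genes lower and 7.8% higher. With equal sums without the 50 highest and the organelle genes, 29 were called lower, next to 43.5% of genes lower and 7.72% higher. With quantile normalization 21 were called lower, next to 24.9% of genes lower and 27.6% higher, and there LHCB2.1 and PSBQA lay above 0 on the log2 scale, at 0.09 and 0.15. The one call lost there was that of PSAD-1. The difference between the members' median and that of all measured genes was between -1.31 and -1.45 log2 units in all 5 scalings.

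**Figure D4:**
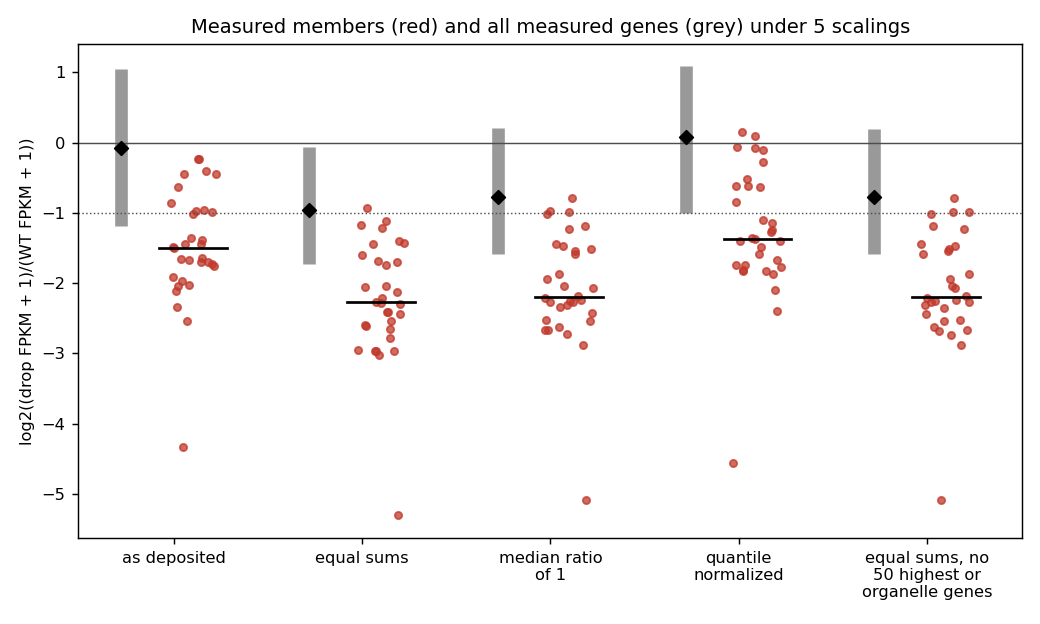
Values of log2((drop FPKM + 1)/(WT FPKM + 1)) for the 32 measured members (red points, black line at their median) and all 9880 measured genes (grey bar from the lower to the upper quartile, diamond at the median) as deposited and under 4 other scalings; a dotted line marks -1. The median of the members lies between -1.36 and -2.27, under that of all genes in each scaling.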

How the data were processed

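The authors deposited 1 table of FPKM values, which has a column for each library, per the file headers. The submitters' processing notes name TopHat2 2.0.14, Cufflinks 2.2.1 and the build TAIR10, without their settings. The comparison used a pseudocount of 1, a 2-fold threshold and a minimum of 1 FPKM in at least 1 library. The 42 members and the 11 other lists (120 genes) were chosen with earlier results of these data known. Any member may be named, and from each list the 2 genes of highest mean and the 2 of largest absolute log2 value among measured genes were named, besides genes listed at 0, regulators, GEX1 and overlapping neighbours chosen after their values were seen. Symbols, overlaps and sequences came from RefSeq TAIR10.1, whose build may differ from that of the files, which hold no coordinates. It matched 32810 of 33557 identifiers and all 42 members. Fragments were estimated as FPKM times transcript length over the value of 1 fragment, read from the lowest peak of that product in each length class. Scripts (Python 3.11.15, pandas 2.3.3, scipy 1.17.1) were tested on simulated data. The alternatives were other pseudocounts, filters, thresholds and scalings, and families summed.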

Additional observations from a re-analysis of the deposited data

How the results depend on the processing

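The count of members called higher was 0 in every setting run, and no member's called direction was reversed. With a pseudocount of 0.1, 26 members were called lower, the median was -1.76, and 3647 genes were called lower and 3158 higher. With a pseudocount of 10, 5 members were called lower, the median was -0.49, and 745 genes were called lower and 1201 higher. With a minimum of 5 FPKM, 6 members were detected in drop and 16 in WT, and 1518 genes were called lower. With a minimum of 10 FPKM, 12 members were called lower, 1 was detected in drop and 12 in WT, and 1015 genes were called lower and 1650 higher. With a 4-fold threshold, 6 members were called lower, and 1180 genes lower and 762 higher. With equal sums the members' median was -2.27, and 4800 genes were called lower and 434 higher. With a median ratio of 1 the median was -2.19 and 771 genes were called higher. With equal sums without the 50 highest and the organelle genes the median was -2.20, 763 genes were called higher, and the members' share was 0.00804% in drop and 0.0724% in WT. The cause of these changes was not tested beyond the construction of each setting. Of 192 values of single measured members, 103 moved by less than 1.5-fold and 89 by more. Leaving out the Rubisco genes or the PSAH genes was chosen after seeing the data, and left 20 members called lower in each case. That count was fixed, since genes are called singly and each family held 2 called members. The median became -1.46 without the Rubisco genes and -1.57 without the PSAH genes. No paired analysis was possible because the labels give 1 library for each genotype, so no replicate could be left out either. Fewer than 20 estimated fragments in drop lay behind 30 of the 32 measured members, which limits the precision of every single ratio.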
